A study of Rattus norvegicus with 2 samples.

Results

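Genes that carry fatty acids into the heart muscle cell, activate them and pass them to the mitochondrion were compared between high-salt and low-salt heart samples of a salt-sensitive rat strain. The genes were Lpl, Cd36, Fabp3, Acsl1, Acsl6, Cpt1a, Cpt1b, Cpt2, Slc25a20 and Crat, and every probe set whose annotated symbol was one of these names was taken. A probe set is a group of short oligonucleotides on the array that reads 1 transcript. Of the 10 genes, 9 had a probe set and Crat, which moves short acyl groups between coenzyme A and carnitine, had none, so it was not analysed here. The 9 genes were among 4736 genes that the array names with a single symbol, and had 16 such probe sets. A further 5 probe sets were annotated to both Cd36 and Cd36l1 and were kept apart.

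The samples were hearts of male rats of the Dahl salt-sensitive strain, whose blood pressure rises on a salty diet, both at an age of 17 weeks. The high-salt group is labelled as having chronic heart failure and the low-salt group carries no condition label. Each group had 1 array, and the labels do not say whether an RNA came from 1 animal or a pool, or from which chamber. There was therefore no spread between replicates, no test and no p-value, and each difference below is a difference between 2 arrays. In whole heart tissue, fewer cells of a type and less RNA per cell cannot be told apart.

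The heart draws most of its energy from fatty acids. Lipoprotein lipase frees them from circulating triglyceride, Cd36 takes them through the cell membrane, Fabp3 carries them in the cytosol, and acyl-CoA synthetases bind them to coenzyme A. Because acyl-CoA does not cross the inner mitochondrial membrane, carnitine palmitoyltransferase 1 transfers the acyl group to carnitine, the carrier Slc25a20 exchanges it across the membrane, and Cpt2 restores acyl-CoA inside for beta-oxidation.

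The intensities, deposited on a linear scale, included values below 0 for 27.3% of the 8740 non-control probe sets on each array. The size of these negative values gave a noise floor of 126.4 (their 95th percentile), which 20.0% of probe sets reached on the high-salt array and 20.3% on the low-salt array. A probe set was called measured where its mean over both arrays reached this floor, and both values were raised to the floor before a ratio was taken; where the high-salt value was under it, the ratio is a bound. Of 1763 measured probe sets, 1.82% were at least 2-fold lower in the high-salt heart and 3.86% at least 2-fold higher. The median log2 ratio was -0.05, the 5th percentile -0.76 and the 95th 0.88. As a partial measure of error, log2 ratios of different probe sets of 1 gene varied with a pooled SD of 0.22 (231 genes), which holds no variation between animals. Heart muscle markers were bright on both arrays, such as the troponin gene Tnnt2 at 5576.1 in high salt and 6017.5 in low salt.

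The uptake genes Lpl and Cd36 differed little between the hearts, whereas the intracellular genes Fabp3, Acsl1, Cpt2 and Slc25a20 were lower in the high-salt heart by 1.55-fold to 2.12-fold in their brightest probe sets. Cpt1b, the muscle form of carnitine palmitoyltransferase 1, was 1.22-fold lower on the same measure, close to Cd36 at 1.23-fold lower. Of the 16 probe sets, 13 were measured, covering 7 genes, so the counts of probe sets hold repeated readings of some genes. Of these 13, 2 were at least 2-fold lower (Cpt2 and, as a bound, Slc25a20) and none was at least 2-fold higher. Over all measured probe sets, the shares were 1.82% lower and 3.86% higher. At 1.5-fold, 6 were lower and none higher, beside 9.76% of all measured probe sets lower and 9.59% higher. These 6 came from 4 genes, with 3 of them from Acsl1. A ratio below 1 was found for 12 of the 13 measured, beside 55% of all measured probe sets. The median log2 ratio was -0.41 over the 13 and -0.29 over all 16 with the dim ones at 0. The exception was L03294_at of Lpl, and it too was below 0 when the log2 ratios were centred on a reference list of housekeeping and ribosomal genes, whose median log2 ratio was 0.15.

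**Figure D1:**
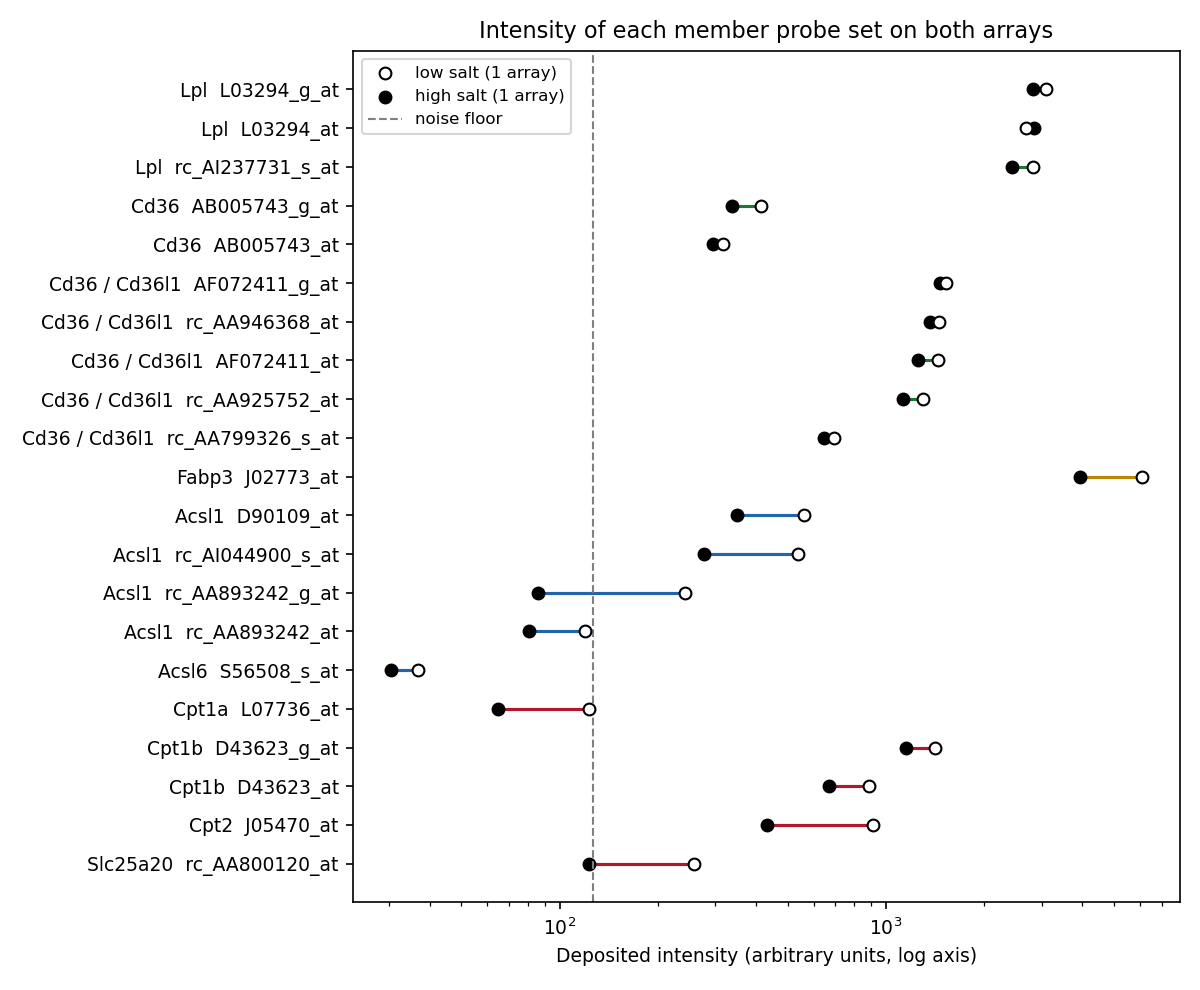
Deposited intensity (log axis) of each of the 21 probe sets on the high-salt array (filled) and the low-salt array (open), ordered from uptake to import; line colours mark uptake (green), binding (ochre), activation (blue) and import (red), and the dashed line is the noise floor of 126.4. The pairs lie close together for Lpl and Cd36, and apart for Fabp3, Acsl1, Cpt2 and Slc25a20, where the high-salt value is the lower.

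The promoters of the 2 genes past 2-fold, Cpt2 and Slc25a20, are shown beside that of Cd36, an uptake gene with little difference. Each is the 250 bases before the gene's start, 5′ to 3′ on the gene's strand, from RefSeq on build GRCr8, and capitals mark GGGCGG on either strand, the GC box that the factor Sp1 binds. The Cpt2 window is chr5:127910819-127911068 on the minus strand, the Slc25a20 window chr8:118243323-118243572 on the plus strand and the Cd36 window chr4:18246332-18246581 on the plus strand. The windows of Cpt2 and Cd36 lie inside the span of longer RefSeq models of these genes, and that of Slc25a20 inside an overlapping gene model.
Cpt2: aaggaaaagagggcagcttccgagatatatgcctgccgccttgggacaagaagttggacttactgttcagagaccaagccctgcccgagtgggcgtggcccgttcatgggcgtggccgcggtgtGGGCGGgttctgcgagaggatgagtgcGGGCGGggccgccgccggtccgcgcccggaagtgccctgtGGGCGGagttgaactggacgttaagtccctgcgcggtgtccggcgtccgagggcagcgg
Slc25a20: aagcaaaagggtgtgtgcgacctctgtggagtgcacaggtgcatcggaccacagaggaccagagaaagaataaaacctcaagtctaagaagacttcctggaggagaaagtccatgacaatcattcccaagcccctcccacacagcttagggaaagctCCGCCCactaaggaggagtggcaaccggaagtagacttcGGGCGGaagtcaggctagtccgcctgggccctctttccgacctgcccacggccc
Cd36: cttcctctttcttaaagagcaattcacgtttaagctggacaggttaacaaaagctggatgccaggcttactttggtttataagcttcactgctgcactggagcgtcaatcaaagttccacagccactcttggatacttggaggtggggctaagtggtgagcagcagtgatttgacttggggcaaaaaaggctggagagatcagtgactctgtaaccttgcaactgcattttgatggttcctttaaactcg
The Cpt2 window held GGGCGG 3 times, starting 126, 99 and 59 bases before the start, and the Slc25a20 window held it 2 times, on opposite strands. The Cd36 window held none. Among 33469 RefSeq promoters of this length, 30.5% held GGGCGG, a motif chosen after the sequences were seen. Promoters were found for 8 of the 10 genes, Lpl and Cpt1b being absent from the table, and 4 of the 8 held it (Acsl6, Cpt2, Slc25a20 and Crat). The base composition differed as well, at 66.8% G and C for Cpt2, 56.4% for Slc25a20 and 45.6% for Cd36, beside a median of 51.2% over all promoters. The windows of Fabp3 and Acsl1, which were also lower in the high-salt heart, held no GGGCGG and had 65.6% and 40.0% G and C. Motifs of nuclear receptors that act on fatty acid genes were also searched on both strands. None of the 8 windows held the half-site AGGTCA (14.1% of all promoters), a direct repeat of it with 1 base between the copies and 1 free base in each, as PPAR and RXR bind (0.368%), or TNAAGGTCA as oestrogen-related receptors bind (1.04%), which contains the half-site. These letters were searched in this window alone.

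At the first step, Lpl, the lipase that sits on the capillary wall and releases fatty acids from triglyceride, read about the same on both arrays. Its probe set L03294_g_at read 2821.9 in high salt and 3098.2 in low salt, and rc_AI237731_s_at read 2437.2 and 2826.1. The third, L03294_at, read 2839.9 in high salt and 2692.8 in low salt. The log2 ratios were -0.13, -0.21 and 0.08, so the 3 probe sets did not share a direction, and the range of 0.29 between them was larger than any of the 3 ratios. L03294_at and L03294_g_at were designed on the same sequence record and are not independent readings.

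Cd36, the fatty acid translocase of the cell membrane, was slightly lower in the high-salt heart in all its probe sets. The probe sets of Cd36 alone read 336.6 in high salt and 413.3 in low salt (AB005743_g_at) and 294.4 and 317.3 (AB005743_at). Their log2 ratios were -0.30 and -0.11, at most 1.23-fold lower. The 5 probe sets shared with the related gene Cd36l1 read from 645.6 to 1463.8 in high salt and from 691.6 to 1523.3 in low salt, with log2 ratios from -0.21 to -0.06. All 7 log2 ratios thus lay between -0.30 and -0.06, a size close to the SD of 0.22 between probe sets of 1 gene. Centring on the reference list lowers each log2 ratio by 0.15 and leaves these signs as they are. Among all measured probe sets, 24.0% had a ratio as low as that of AB005743_g_at or lower, so these values lay within the bulk of the array.

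Fabp3, the cytosolic fatty acid binding protein of heart muscle, was 1.55-fold lower. Its only probe set, J02773_at, read 3932.1 in high salt and 6103.4 in low salt, so the high-salt level was 64.4% of the low-salt one, with a log2 ratio of -0.63. Ratios this low were uncommon among bright probe sets. Of 147 probe sets with a mean of at least 2000, 2 were at least 1.5-fold lower, namely Fabp3 and a probe set of the myosin gene Myh6. None of the 147 was at least 2-fold lower. These counts cover the lower direction alone, and the log2 ratios of the 147 had an SD of 0.66.

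**Figure D2:**
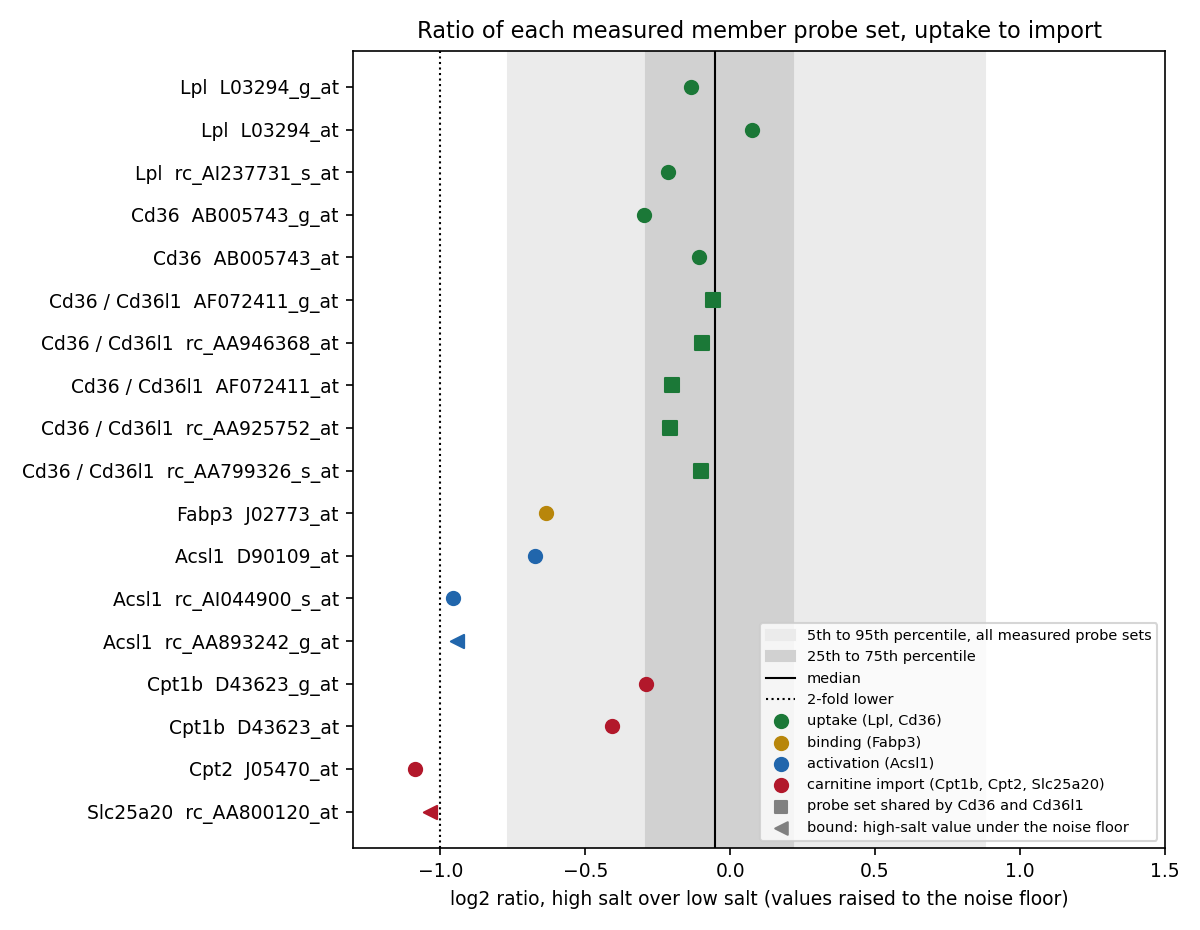
Log2 ratio (high over low salt) for each of the 18 measured probe sets, in pathway order, over the 5th to 95th (light) and 25th to 75th (dark) percentiles and the median of all 1763 measured probe sets. Lpl and Cd36 fall in or at the edge of the dark band, and Cpt2 (-1.09) and Slc25a20 (bound at -1.03) lie past the 2-fold line.

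Acsl1, the main long-chain acyl-CoA synthetase of the heart, was lower in all 3 of its measured probe sets, and the remaining 1 was too dim to read. D90109_at read 350.3 in high salt and 559.2 in low salt, 1.60-fold lower, and rc_AI044900_s_at read 276.7 and 537.0, 1.94-fold lower. The third, rc_AA893242_g_at, read 86.0 in high salt and 242.8 in low salt. Because its high-salt value lay under the noise floor, it is given as at least 1.92-fold lower; without the floor, the deposited values differ 2.82-fold. The fourth, rc_AA893242_at, stayed under the floor on both arrays at 80.8 and 119.7, and gives no ratio. The log2 ratios of the 2 probe sets above the floor on both arrays were -0.67 and -0.96, at least 3 times the SD of 0.22 in size. Of all measured probe sets, 6.64% and 2.21% had a ratio as low as these or lower. Acsl6, a synthetase best known from brain, read 30.4 and 36.9, under the noise floor on both arrays. The other synthetases of the list, Acsl3, Acsl4, Acsl5, Acsm2 and Acsm3, were also under it on both arrays. The thioesterases Acot2 and Acot7, which split acyl-CoA again, read 110.3 against 234.8 (at least 1.86-fold lower) and 202.0 against 306.0 (1.51-fold lower).

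Carnitine import divided into a step with a small difference and steps with a larger one. Cpt1b, which forms acylcarnitine at the outer membrane of muscle mitochondria, read 1152.8 in high salt and 1410.7 in low salt in D43623_g_at and 670.1 and 889.7 in D43623_at. Its log2 ratios were -0.29 and -0.41, so it was 1.22-fold and 1.33-fold lower in probe sets of the same sequence record. Cpt1a, the liver form of the same enzyme, read 64.5 and 123.0, under the noise floor on both arrays, and no direction is given for it. It lay just under the floor in low salt, at 123.0 against 126.4, whereas the Acsl1 probe set rc_AA893242_g_at was the dimmest of the measured ones with a mean of 164.4.

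Slc25a20, the carnitine-acylcarnitine carrier of the inner membrane, was at least 2.05-fold lower. Its probe set rc_AA800120_at read 122.7 in high salt and 259.0 in low salt, the former just under the noise floor, and the deposited values differ 2.11-fold. Cpt2, the carnitine palmitoyltransferase on the matrix side, was 2.12-fold lower with both values well above the floor, at 431.1 in high salt and 915.3 in low salt (J05470_at, log2 ratio -1.09). Of the 1763 measured probe sets, 21 had a ratio as low as that of Cpt2 or lower. Slc25a20, being a bound, was given no such rank. Each of these genes rested on 1 probe set, so no second reading stands beside it.

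**Figure D3:**
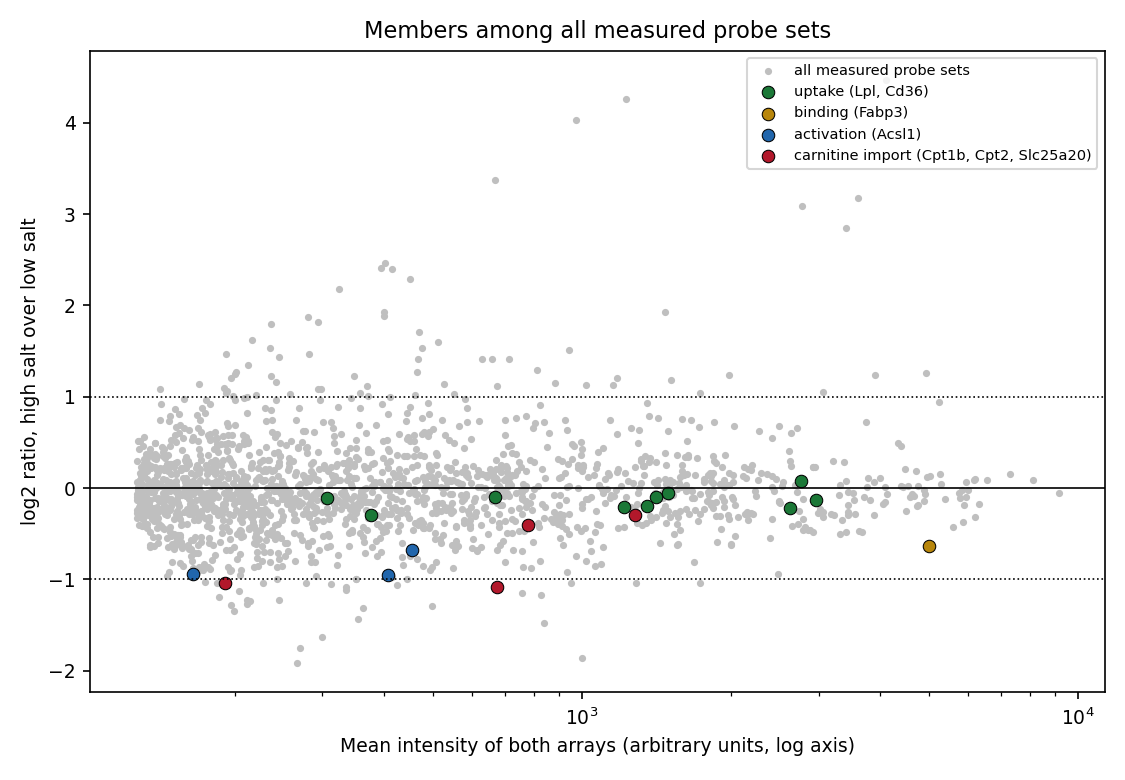
Log2 ratio (high over low salt) against the mean intensity of both arrays (log axis) for all 1763 measured probe sets (grey), with the 18 probe sets of the pathway coloured by step; dotted lines mark 2-fold. Fabp3 lies below nearly all probe sets of its brightness, and the uptake probe sets lie close to 0.

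Over the probe sets above the noise floor on both arrays, 6 genes could be ordered by their median log2 ratio. They ran from Cpt2 (-1.09) and Acsl1 (-0.82) through Fabp3 (-0.63) to Cpt1b (-0.35), Cd36 (-0.20) and Lpl (-0.13). Slc25a20 was left out of the order, because its -1.03 is a bound set by the floor. No neighbours in this order were further apart than 0.31, the SD that the pooled SD of 0.22 gives for a difference of 2 readings. Of the 15 pairs of genes, 9 were further apart than this SD. It is a rough yardstick for single readings, whereas the medians rest on 1 to 3 probe sets, some of the same sequence record. Lpl and Cd36 differed from Cpt2 by 0.95 and 0.88, and from Acsl1 by 0.68 and 0.61. Within the carnitine shuttle, Cpt1b differed from Cpt2 by 0.74. Lpl, Cd36 and Cpt1b lay within 0.22 of each other. These ratios of single arrays describe the 2 samples and carry no test.

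Other genes of lipolysis and transport, taken from lists of the pathway, included none past 2-fold. In the lipolysis list 3 of 8 genes on the array were measured: Lpl, Apoc3 (177.0 in high salt against 144.5 in low salt) and Apoe. Apoe, an apolipoprotein ligand of lipoprotein receptors, was higher at 929.2 against 545.7, a log2 ratio of 0.77, beside 0.21 in its other probe set. The lipases Lipc, Lipe and Mgll and the receptor Vldlr were under the noise floor on both arrays. Of 10 measured genes in the transport and binding list, which holds Cd36 and Fabp3, 9 had a ratio below 1, beside 54.8% of all measured genes. The median log2 ratio was -0.28 over the 10, and -0.27 over the 8 without Cd36 and Fabp3. Cav1, the caveolin of membrane pits that endothelial cells and adipocytes also hold, read 135.5 against 254.4 (1.88-fold lower). Fabp4, the binding protein of adipocytes and capillary endothelium, read 613.4 against 785.0. Scp2, a carrier of sterols and fatty acids, was the gene above 1 by its brightest probe set, at 467.5 against 327.4. Cav3, counted below 1, had log2 ratios from -0.12 in its brightest probe set to 0.33 over 3 probe sets.

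Around the carnitine shuttle, the list of 8 genes on the array had Cpt1b, Cpt2 and Slc25a20 as its measured genes. Acaca and Acacb, whose product malonyl-CoA inhibits Cpt1, the octanoyl transferase Crot and the carnitine transporter Slc22a5 were under the noise floor on both arrays, at 9.5 against 8.0, 50.5 against 46.4, 116.9 against 105.2 and 15.5 against 34.0. Downstream, all 13 measured genes of the beta-oxidation cycle had a ratio below 1, beside 54.8% of all measured genes. Of these, 5 were at least 2-fold lower and none higher, beside 2.01% of all 1094 measured genes lower and 3.93% higher. Their median log2 ratio was -0.83, with Acadvl, the very-long-chain acyl-CoA dehydrogenase, at 214.2 against 455.2 (2.13-fold lower) and Acadm, the medium-chain one, at 1120.9 against 1465.5 (1.31-fold lower). For the 7 measured genes of uptake, activation and import, the median over genes was -0.63, with 2 of 7 at least 2-fold lower and none higher. The 31 measured genes of the citrate cycle and the respiratory chain had a median of -0.29, with 2 at least 2-fold lower (Ndufb10 and Ndufs7, subunits of complex I). Of the 31, 28 had a ratio below 1, so this direction was shared with the fatty acid genes. Whether these lists differ from the fatty acid genes was not tested.

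**Figure D4:**
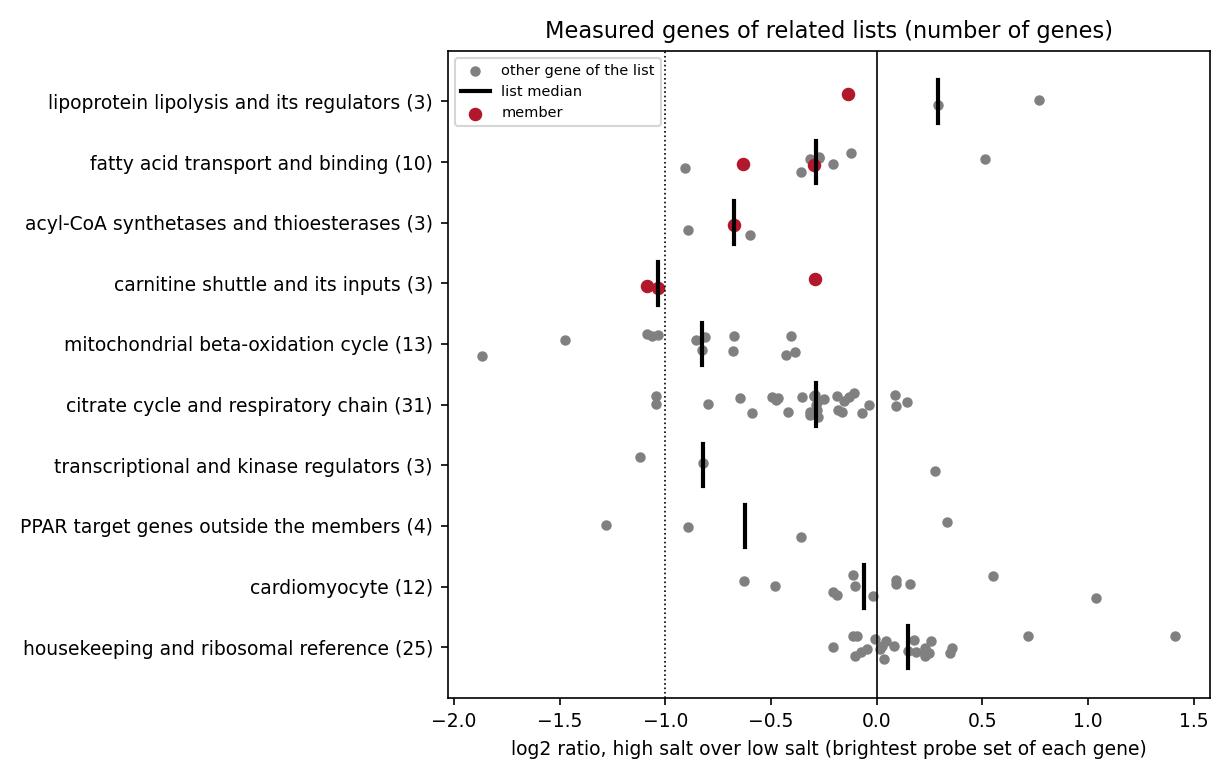
Log2 ratio (high over low salt) for each measured gene (brightest probe set) of 10 lists, with the number of genes in brackets, genes of the pathway in red, other genes in grey and the list median as a black bar. The medians run from -1.03 in the carnitine shuttle list, which is the bound of Slc25a20 among 3 genes, to 0.29 in the lipolysis list, and the reference list lies at 0.15.

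Of the regulators that act on this pathway, most were too dim to read. PPAR alpha, the nuclear receptor that binds fatty acids and drives their oxidation genes, had a Ppara reading of 36.5 against 41.8, and Ppard, Pparg, Rxra, Rxrb and Esrra were likewise under the noise floor on both arrays. In this list of 14 genes on the array, 3 were measured. Rxrg, a retinoid X receptor that pairs with PPAR, was 2.17-fold lower at 210.9 against 458.0. Prkab1, a subunit of AMP-activated kinase, was at least 1.77-fold lower at 85.8 against 223.7, and Prkaa2, its catalytic subunit in muscle, was higher at 215.7 against 177.9. Among PPAR targets outside the pathway, 4 of 11 were measured. Pdk4, which shuts off glucose oxidation, was at least 2.43-fold lower at 85.6 against 307.3, while Ucp2, a mitochondrial carrier, was higher at 1825.2 against 1446.8.

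Markers of the cells that could hold these transcripts were read beside them, with values below 0 counted as 0 in sums. Of 13 cardiomyocyte markers on the array, read by their brightest probe sets, 12 were measured, with a median log2 ratio of -0.06. None was at least 2-fold lower and 1 was at least 2-fold higher (Csrp3), beside 2.01% and 3.93% of all measured genes. The summed intensity of the 13 was 54741 in high salt and 54438 in low salt. Probe sets of 1 marker could differ, with log2 ratios from -0.94 to -0.10 over 3 of Myh6 and from 0.09 to 1.05 over 2 of Myh7. The members went both ways, with Ldb3 at 720.6 against 1112.1, Ckm at 3062.3 against 4279.7, Des at 2870.1 against 1961.6 and Csrp3 at 2331.6 against 1135.3. Of 9 adipocyte markers, which bear on Lpl, Cd36 and Acsl1, 3 were measured, and their summed intensity was 1309 in high salt and 1806 in low salt. Aqp7, a glycerol channel that heart muscle also has, was at least 3.78-fold lower at 55.6 against 478.1, while Fabp4 was 1.28-fold lower and a Lep probe set read 531.1 against 453.6. The defining adipocyte genes Plin1 (-0.7 against -23.3) and Cfd (2.2 against 6.8) were at the level of no signal on both arrays. Endothelial markers summed to 531 in high salt and 618 in low salt over 7 genes, with Cav1 the only measured one and the defining Vwf at 14.3 against 5.7. Without Cav1, the other 6, all too dim to read, summed to 396 and 364. Macrophage and leukocyte markers summed to 1190 and 1539 over 7 genes, with Lyz2 higher at 458.6 against 130.4 and Cd74 lower at 507.3 against 1144.4. Fibroblast markers summed to 5387 and 3988 over 11 genes, and the 3 red blood cell markers to 7945 and 3135. The part of these cells in the lower readings of the fatty acid genes was not tested.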

How the data were processed

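Biotin-labelled cRNA of 2 heart samples was read on 1-colour arrays, per the labels' protocols. The authors deposited linear intensities, 1 for each probe set on each array; the software and any detection call behind them were not given in the sources used here. Without controls, the 2% trimmed means differed by 0.072% between arrays, and the deposited values were used as they stood. The 59 control probe sets were left out. Names came from the platform annotation of 2016: of 8740 probe sets, 7006 had 1 symbol, 308 several and 1426 none. A gene of a list was read by its brightest probe set by mean intensity. Genes named from the lists were to be up to 4 per list with the largest ratios; others, such as dim regulators, Apoc3, Acadvl, Acadm and marker genes, were picked with their values known. The members and lists were chosen with earlier results of these data known. With 1 array per group no test was run. The steps were tested on simulated data, with changes larger than 2-fold planted only in probe sets well above the noise floor. That test does not bear on smaller ratios or on dim probe sets. Alternatives were other scalings, floors, filters, fold thresholds, probe set rules and leaving out probe set types that can share sequence. The tools were numpy 2.4.6, scipy 1.17.1, pandas 2.3.3, statsmodels 0.14.6 and matplotlib 3.10.9 in Python 3.11.15.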

Additional observations from a re-analysis of the deposited data

How the results depend on the processing

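The count of 2 probe sets (2 genes) at least 2-fold lower was 6 (4 genes) at 1.5-fold and 0 (0 genes) at 3-fold. It was 1 (1 gene) under loess normalization, where Slc25a20 stood at -0.95. It was also 1 (1 gene) with the noise floor at the 99th percentile, where both Slc25a20 values were raised to the floor and its log2 ratio was 0. The same count was found with the noise floor reached on both arrays, where Slc25a20 was no longer read. Cpt2 stayed past 2-fold in all 9 scalings and floors tried, from -1.23 to -1.04, but both its values lie above every floor, so the floors could hardly move it. The count was 3 with the floor at the 40th or 60th percentile or with no floor, where the Acsl1 probe set rc_AA893242_g_at also passed 2-fold. Centred on the reference list it was 4, with 2 Acsl1 probe sets added, and 13 of 13 ratios were below 1. That centring also moved the split over all measured probe sets from 32 lower and 68 higher to 65 lower and 45 higher, and the median of all from -0.05 to -0.20. The median of the 13 was -0.63 without probe set types that can share sequence (7 left) and otherwise from -0.56 to -0.29 over the alternatives tried. No alternative gave a member at least 2-fold higher. Of 117 values of single probe sets under the scalings and floors, 112 moved by less than 0.22, and 5, of Slc25a20 and the dimmest measured Acsl1 probe set, moved further under other floors. The count of 112 does not measure robustness, because many of these values could hardly move. Other floors leave the ratios of the 11 probe sets above the noise floor on both arrays nearly as they are, and centring lowers each ratio by 0.15. The alternative without filter and with the floor at the 40th percentile was chosen after seeing the data. No paired analysis was possible because each group has 1 array. Signal over background limits Cpt1a, Acsl6, Slc25a20 and 2 Acsl1 probe sets.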
